A study of Mus musculus with 4 samples.

Results

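The transcripts described here are those of 6 subunits of the transcription factor AP-1, the Fos family genes Fos, Fosb and Fosl2 and the Jun family genes Jun, Junb and Jund, which are 6 of the 55357 genes in the count tables. They were chosen by symbol, and their levels, their spread over lineages and their difference between treatments were already known when they were chosen, so those values are given as a description. They were measured by single-cell RNA-seq in sorted mouse LSK cells. LSK stands for a lineage-negative surface with Sca-1 and Kit present, the bone marrow compartment in which haematopoietic stem cells (HSC) and early progenitors are found. All mice were wild type. The 2 Yoda1 libraries came from mice given Yoda1, a chemical agonist of the stretch-gated channel Piezo1, by the intraperitoneal route over 2 weeks, and the 2 control libraries from mice given vehicle. No strain, age or sex is in the labels, and whether each library is a different mouse is not stated either. The p-values therefore reflect the spread from library to library alone, and that spread may be technical.

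AP-1 is a dimer of basic leucine zipper proteins that binds the TGANTCA element and, less tightly, the longer TGACNTCA element. Jun proteins pair with themselves or with a Fos protein, whereas Fos proteins need a Jun partner. Fos, Fosb, Jun and Junb are immediate early genes, whose transcription starts within minutes of a stimulus without new protein synthesis and whose short-lived mRNAs decay soon after; in blood-forming tissue, Junb is known for restraining the expansion of stem cells and myeloid progenitors, and Jund for a steadier level than its relatives.

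The promoters show which of these genes carry a TGACG core, the element bound by CREB and ATF proteins downstream of calcium and cAMP, and which carry an AP-1-like element of their own. The 250 bases upstream of the RefSeq start (GRCm38.p6) were read for all 6 members. For Fos and Jun that start is the GENCODE gene start, and for Fosb and Junb it lies close to it without matching. For Fosl2 and Jund it lies further off. The Fosl2 window (chr5:32136222-32136471) lies inside the GENCODE gene and the Jund window (chr8:70697489-70697738) ends well before it. These 2 windows may therefore not be the promoters in use. Of the 6, the 4 that hold such an element are printed 5′ to 3′ on the gene's strand, with the TGACG or TGACNTCA match in capitals.
Fos, chr12:85473640-85473889, plus strand: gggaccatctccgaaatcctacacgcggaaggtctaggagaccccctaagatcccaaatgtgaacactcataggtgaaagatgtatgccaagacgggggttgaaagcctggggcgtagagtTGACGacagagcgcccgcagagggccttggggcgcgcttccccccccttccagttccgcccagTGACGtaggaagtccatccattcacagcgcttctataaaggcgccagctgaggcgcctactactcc
Fosb, chr7:19310046-19310295, minus strand: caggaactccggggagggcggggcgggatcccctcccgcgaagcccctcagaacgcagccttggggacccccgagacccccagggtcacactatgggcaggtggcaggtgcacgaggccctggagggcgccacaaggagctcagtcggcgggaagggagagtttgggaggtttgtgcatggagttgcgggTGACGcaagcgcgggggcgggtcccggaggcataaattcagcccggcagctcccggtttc
Jun, chr4:95052223-95052472, minus strand: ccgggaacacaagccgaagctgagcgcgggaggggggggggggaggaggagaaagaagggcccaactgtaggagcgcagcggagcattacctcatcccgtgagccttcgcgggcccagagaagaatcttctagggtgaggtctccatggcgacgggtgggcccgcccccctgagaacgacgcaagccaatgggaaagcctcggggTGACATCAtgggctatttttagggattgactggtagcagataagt
Junb, chr8:84978749-84978998, minus strand: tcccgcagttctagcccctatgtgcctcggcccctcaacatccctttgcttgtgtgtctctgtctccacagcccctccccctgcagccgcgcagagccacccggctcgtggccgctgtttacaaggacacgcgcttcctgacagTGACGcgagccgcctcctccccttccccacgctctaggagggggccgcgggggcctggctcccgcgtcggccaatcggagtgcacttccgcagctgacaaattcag

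Fos held 2 TGACG matches, beginning 129 and 66 bases before the start, Fosb held 1 at 60 bases and Junb held 1 at 106 bases. Both strands were searched, and 17.8% of the 32851 promoter windows of the same length in the RefSeq table hold TGACG. Jun held TGACATCA 45 bases before its start, a match to TGACNTCA, which 7.49% of windows hold; this match does not overlap a TGACG match. TGANTCA, held by 6.75% of windows, was in none of the 6 windows, and neither was the CArG box bound by serum response factor (1.47% of windows). Bases more than 250 upstream of the start were not searched, so a site further upstream would be missed. CCAAT, held by 33.8% of windows, was found in Jun and Junb, and TATAA, held by 22.8%, in Fos. A match is a description of these letters and not evidence of binding.

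The other sequence feature of this family lies in the 3′ UTR, where AU-rich elements mark short-lived mRNAs. The nonamer TTATTTATT was in the 3′ UTR of 2 of the 6 members, against 7.59% of 20998 genes with a 3′ UTR in GENCODE (GRCm38), and is shown in capitals within 25 bases.
Fos 3′ UTR: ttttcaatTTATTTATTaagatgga
Fosl2 3′ UTR: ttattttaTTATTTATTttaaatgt

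The shorter ATTTA pentamer, which 65% of genes have at a median of 1.23 per 1000 bases of 3′ UTR, was found 4 times in Fos (4.91 per 1000 bases), 1 time in Fosb (0.434), 8 times in Fosl2 (1.72), 4 times in Jun (3.24), 2 times in Junb (4.12) and 1 time in Jund (1.88). The coding transcripts of Jun, Junb and Jund have 1 exon each, as do those of 6.74% of genes, and those of the Fos family members 4. In GRCm38 the genes lie at chromosome 12, 85473890 to 85477273 (Fos), chromosome 7, 19302696 to 19310051 (Fosb), chromosome 5, 32135801 to 32157842 (Fosl2), chromosome 4, 95049034 to 95052222 (Jun), chromosome 8, 84974484 to 84978718 (Junb) and chromosome 8, 70698949 to 70700616 (Jund). The counts give 1 value per gene, without a split into exons and UTRs. Jun shares 689 bases with Junos, Junb 351 with Prdx2 and Jund 919 with Gm11175, and whether the counting used strand is not given in the sources used here. Junos and Gm11175 were each under 1 UMI per 1000000 (CPM) in every library over all cells. Prdx2 was at 526, 532, 497 and 562 CPM, so reads of Junb and Prdx2 in the shared bases are uncertain.

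After filtering, control 1, control 2, Yoda1 1 and Yoda1 2 held 7620, 7822, 9122 and 9756 cells with 103007020, 89058521, 110493533 and 90577494 UMIs, and values listed per library below keep that order. Yoda1 2 stood apart from the other libraries in its makeup. HSC-gated cells were 24.8% of its cells against 4.12% to 7.06% elsewhere, and the summed myeloid markers were at 2411 CPM against 7924 to 9970. The summed B cell markers were at 63.3, 209, 43.0 and 185 CPM and the summed lymphoid markers at 266, 518, 320 and 806 CPM, high in control 2 and Yoda1 2. The summed dendritic markers, 411, 538, 125 and 503 CPM, and the summed mast cell and basophil markers, 428, 567, 242 and 408 CPM, were lowest in Yoda1 1. Any 2 libraries shared 14 to 30 cell barcodes. The part of this makeup in the results over all cells was not tested.

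Over all cells, Fos was the only member whose libraries did not overlap between the groups. The Jun genes were high in control 2 and Yoda1 2 and low in control 1 and Yoda1 1. Fos, the founding partner of Jun in AP-1, stood at 32.2, 50.6, 16.3 and 29.1 CPM, with both Yoda1 libraries below both controls. Its log2 fold change was -0.93 ± 0.27 (SE), with an adjusted p of 0.99994 in edgeR's quasi-likelihood test. Of all 18182 genes tested, 9.95% had both Yoda1 libraries below both controls and 9.40% both above, and the test called 0 genes (0%) although 309 had an unadjusted p below 0.05. With DESeq2 the number called was 5 (0.0275%), none of them a member. The 6 members all had negative fold changes and 0 were called. The count is sensitive to 1 library: without Yoda1 2 the log2 fold change of Fos was -1.26 and passed (edgeR adjusted p = 1.27e-04), and the number of genes called was 209 (1.11%) without Yoda1 2 and 938 (4.96%) without Yoda1 1.

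Fosb, a close relative of Fos, was at 13.3, 18.3, 9.48 and 13.8 CPM, where the higher Yoda1 library lay between the controls, and the log2 fold change was -0.50 ± 0.23. Fosl2, which encodes Fra-2, was at 4.82, 7.55, 4.26 and 7.40 CPM (log2 fold change -0.14 ± 0.32). For both, the groups overlapped.

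Jun, which encodes c-Jun, was at 141, 297, 116 and 218 CPM (log2 fold change -0.45 ± 0.37). Junb was at 47.7, 88.3, 39.8 and 81.9 CPM (-0.23 ± 0.34). Jund was at 175, 282, 133 and 270.0 CPM (-0.25 ± 0.32). In each of the 3, control 2 and Yoda1 2 lay above control 1 and Yoda1 1, and the spread within a group was wider than the difference between the group means. Without control 2 the log2 fold change turned positive for Jun (0.11), Junb (0.21), Jund (0.06) and Fosl2 (0.14), and without Yoda1 1 it did so for Junb (0.12), Jund (0.09) and Fosl2 (0.11).

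**Figure D1:**
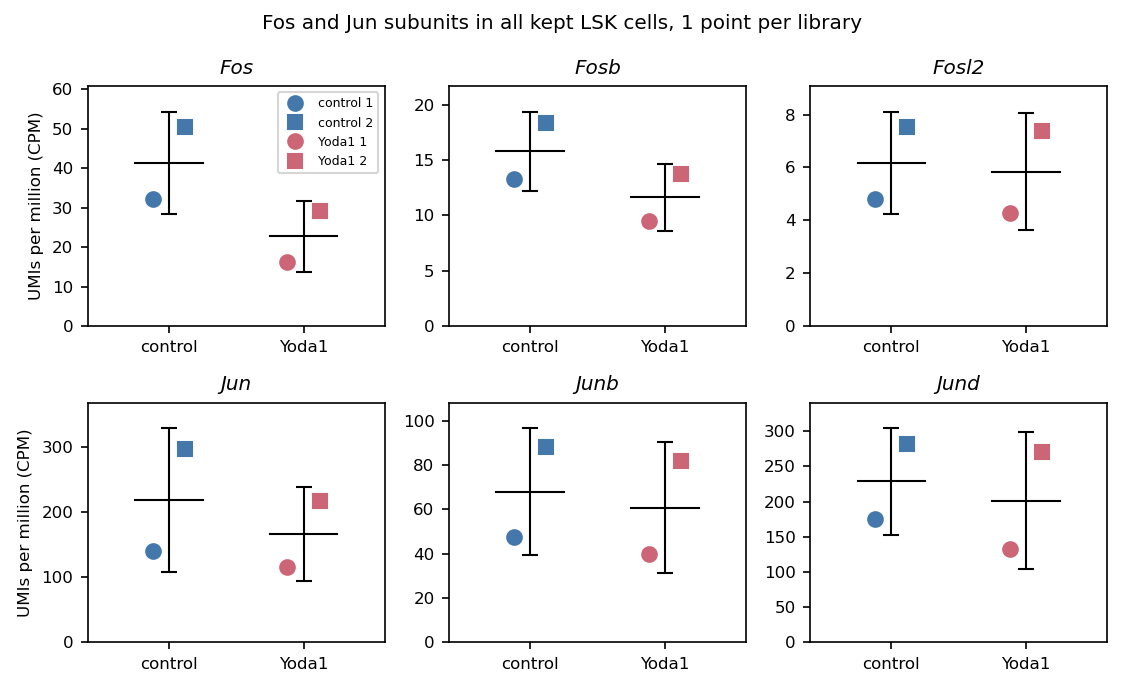
CPM of each Fos and Jun gene over all kept cells (y axis, linear from 0) in control and Yoda1 libraries, 1 point per library, with the mean and SD of the 2 libraries of a group as lines. Fos alone has both Yoda1 points (16.3 and 29.1 CPM) below both control points (32.2 and 50.6 CPM); for Jun, Junb and Jund the square symbols, the libraries numbered 2, are the high ones.

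A sum over all cells does not show in how many cells a transcript was detected. Each cell was therefore also thinned to 3000 UMIs and the share of cells with at least 1 UMI counted. In sparse counts this share falls with fewer cells that hold a transcript and with fewer transcripts per cell, so it cannot separate these. For Fos that share was 9.56%, 13.1%, 5.29% and 7.74%, in order, with exact 95% intervals of 8.90% to 10.3%, 12.3% to 13.8%, 4.83% to 5.77% and 7.21% to 8.31%. Both Yoda1 shares lay below both control shares, as the CPM did. The unthinned shares were 22.4%, 26.7%, 13.8% and 16.6%. For Jun the thinned share was 30.3%, 47.5%, 29.9% and 39.3%, and for Jund 37.8%, 50.6%, 34.5% and 50.04%, each highest in control 2. Intervals cover counting error only. No population here is known to lack these genes, so the share that free RNA gives could not be read from one; the Fos shares were low in the myeloid gate, given below, the megakaryocyte gate (5.43%, 5.28%, 2.44% and 2.12%) and the erythroid gate (4.68%, 7.80%, 2.43% and 7.55%).

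To compare the members across lineages, cells were assigned to a population by marker genes, and the populations are called gated cells since they rest on markers alone. Of 9 populations with at least 50 cells in every library, 8 were gated and the ninth, the ungated cells, held 25.4%, 27.5%, 34.8% and 41.7% of the libraries. HSC-gated cells had a median of 11.3 UMIs per 10000 from the HSC markers and erythroid-gated cells 0.73, a difference that the gate itself sets. In the mast and basophil gate its own markers had a median of 25.2 and a mean of 128, and the myeloid markers a median of 42.7. In the dendritic gate its own markers had a median of 19.5 and a mean of 132. These markers were thus unevenly spread over the cells of both gates. The gate is a range on a score and not a clean type: 13.0% of HSC-gated and 14.7% of lymphoid-gated cells lay within 0.25 SD of the limit.

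Jun was highest in the mast and basophil gate, at 401, 782, 316 and 521 CPM, and second in the HSC gate, at 281, 485, 283 and 275 CPM. It was lowest in the myeloid gate in 3 of 4 libraries, at 62.6, 96.4, 45.3 and 60.4 CPM, and in the monocyte gate, at 77.9, 122, 65.8 and 49.6 CPM, in Yoda1 2. The highest population of each library exceeded that library's lowest 6.40-fold, 8.11-fold, 6.98-fold and 10.5-fold, the last over the monocyte gate and the others over the myeloid gate. By mean over libraries the order of Jun was mast and basophil, HSC, ungated, lymphoid, dendritic, erythroid, megakaryocyte, monocyte and myeloid. No neighbours in that order were apart in all libraries beyond their spread, although 4 of the 8 neighbouring pairs kept their order in all 4 libraries.

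By mean over libraries, Jund had the HSC gate first (319, 532, 363 and 356 CPM) and the myeloid gate last (79.2, 94.1, 49.1 and 78.7 CPM). In control 1 and Yoda1 2 the mast and basophil gate was above the HSC gate (327 and 385 CPM) and the monocyte gate below the myeloid gate. It was the only Jun gene with a neighbouring pair whose library ranges did not overlap. That pair was the megakaryocyte gate (194, 261, 123 and 157 CPM) over the monocyte gate (73.9, 110, 58.7 and 62.0 CPM). Junb was highest in the dendritic gate (82.9, 214, 75.8 and 124 CPM) in control 2 and Yoda1 1 and in the mast and basophil gate (88.9, 183, 75.7 and 140.2 CPM) in the other libraries. It was lowest in the monocyte gate (33.0, 44.3, 30.0 and 42.3 CPM) except in Yoda1 2, where the myeloid gate was at 41.0 CPM. The highest population of each library exceeded its lowest 2.69-fold, 4.84-fold, 2.53-fold and 3.42-fold.

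The population with the most Fos differed between libraries. In the dendritic gate Fos was at 82.2, 184, 33.0 and 62.5 CPM, the highest in control 2, and in the mast and basophil gate at 69.6, 104, 51.7 and 95.3 CPM, the highest in both Yoda1 libraries. In the lymphoid gate it was at 98.9, 121, 24.9 and 34.8 CPM, the highest in control 1, and in the HSC gate at 69.4, 89.5, 43.5 and 33.4 CPM. It was lowest in the megakaryocyte gate (16.2, 17.1, 6.88 and 7.47 CPM) in control 2 and Yoda1 2 and in the erythroid gate (14.8, 21.6, 6.27 and 12.6 CPM) in control 1 and Yoda1 1. The order of neighbours was not resolved for Fos, none being apart beyond their spread.

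Fosb had its highest level in the mast and basophil gate, at 49.9, 70.1, 39.3 and 58.9 CPM, above the HSC gate (18.5, 32.9, 36.4 and 18.5 CPM) in every library and without overlap. In the myeloid gate it was at 6.003, 5.87, 2.67 and 2.13 CPM, the lowest in control 2 and Yoda1 1; the lowest was the erythroid gate (5.72 CPM) in control 1 and the monocyte gate (1.13 CPM) in Yoda1 2. Fosl2 was highest in the HSC gate, at 10.4, 16.6, 6.03 and 13.9 CPM, except in Yoda1 1, where the monocyte gate was at 6.62 CPM. It was at 2.02, 2.47, 2.01 and 2.41 CPM in the megakaryocyte gate.

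In cells thinned to 3000 UMIs, the share of HSC-gated cells with a Fos UMI was 12.7%, 17.8%, 11.5% and 8.40%, and that of myeloid-gated cells 4.94%, 4.41%, 2.90% and 2.50%. Their ratio was 3.49 ± 0.68 (SD, n = 4 libraries) for Fos, 3.31 ± 0.74 for Jun, 2.23 ± 0.34 for Junb and 3.20 ± 0.43 for Jund. In Yoda1 2 the myeloid gate held only 160 thinned cells, so the Fos share there rests on few cells with a UMI. The gates differ in depth, with a median of 5209 to 6425 UMIs in HSC-gated and 16005 to 19981 in myeloid-gated cells. Unthinned, the ratios were 1.37, 1.47, 0.851 and 1.36, so for Junb the direction reversed.

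**Figure D2:**
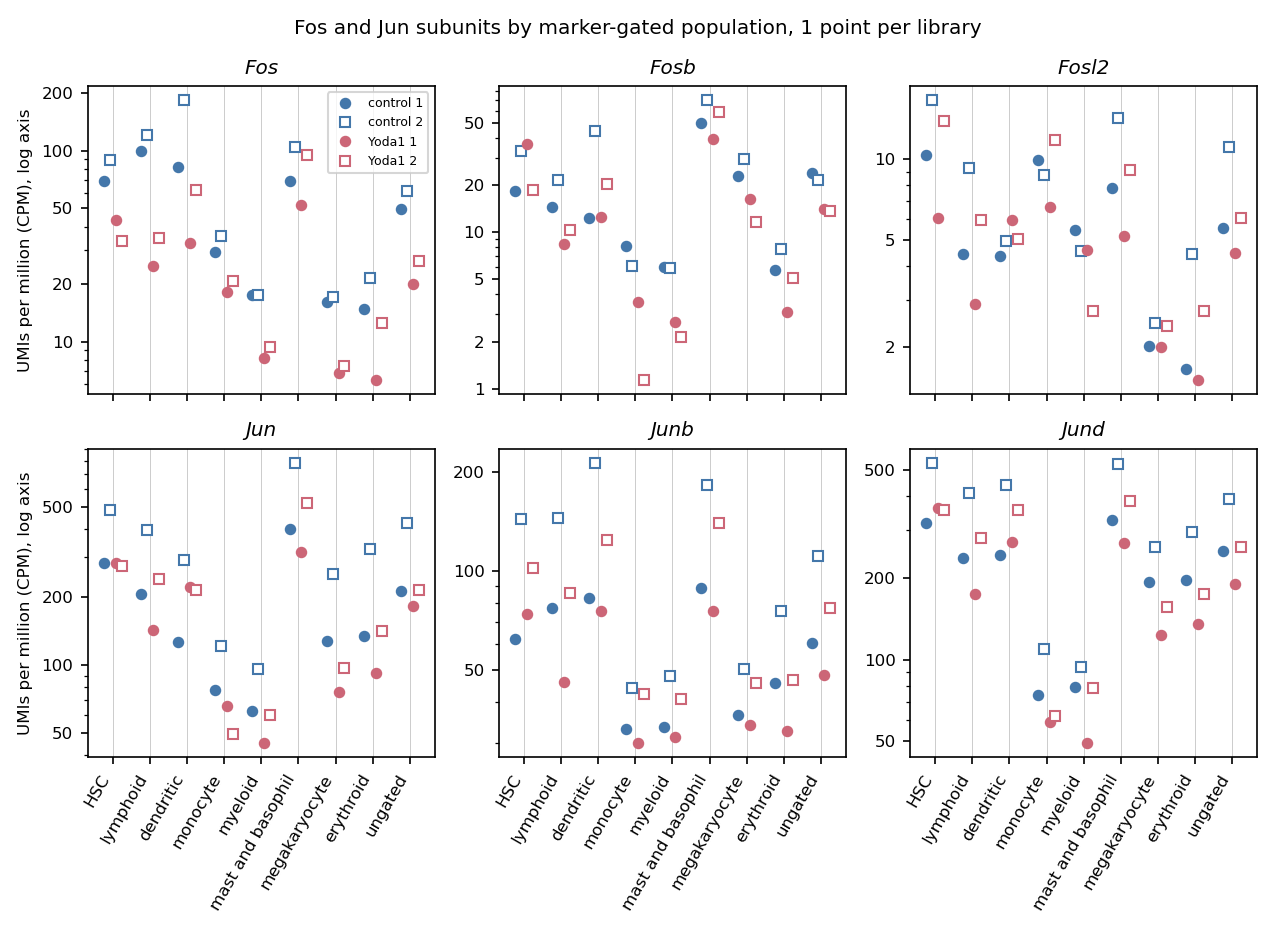
CPM (log axis, scaled for each gene) of the 6 members in 9 populations, 1 point per library; circles are libraries numbered 1, open squares libraries numbered 2, blue control and red Yoda1. Fos has both red points below both blue points in every population except the mast and basophil gate, whereas the Junb points of the groups overlap in all 9.

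The members were next compared between Yoda1 and control within each population. Gating did not hold the makeup of a population constant: in each of the 9, between 3 and 8 of the 14 or 15 marker lists of other cell types had both Yoda1 libraries below both controls. Others had both above: 4 in the dendritic gate (HSC, lymphoid, B cell and endothelial), 1 in the lymphoid gate (endothelial) and 1 in the monocyte gate (HSC). The HSC markers in the dendritic gate were at 170, 223, 335 and 425 CPM. In the dendritic gate the summed megakaryocyte markers were at 1186, 1477, 182 and 180.1 CPM, the myeloid markers at 4280, 3231, 2147 and 1281 CPM and the monocyte markers at 1398, 1711, 575 and 1108 CPM, and the dendritic markers themselves were lowest in Yoda1 1 (13056, 20476, 4829 and 14717 CPM). In the lymphoid gate the mast cell and basophil markers were at 58.5, 54.3, 24.7 and 28.4 CPM and the myeloid markers at 1985, 1378, 1164 and 660 CPM, whereas the lymphoid markers were at 2311, 2817, 2414 and 2440 CPM and overlapped. The part of these markers in the differences below was not tested. Fos was below both controls in both Yoda1 libraries in 8 of 9 populations, the mast and basophil gate being the exception. Between libraries of the same number it was lower in all 9, with Yoda1 over control ratios of 0.252 to 0.742 for those numbered 1 and 0.288 to 0.914 for those numbered 2. The same 4 libraries enter every population, so the 9 are not independent. Among 10129 genes tested in all 9 populations, 0.405% were below in at least 8. With the populations weighted equally, Fos stood at 49.7, 72.4, 23.6 and 33.6 CPM, and the groups did not overlap. Fosb did not overlap either, at 18.0, 26.7, 15.2 and 15.8 CPM, whereas Fosl2, Jun, Junb and Jund did. The share of all genes without overlap at equal weights was not computed.

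In the lymphoid gate, 98.9 and 121 CPM in control against 24.9 and 34.8 CPM in Yoda1 gave a log2 fold change of -1.84 ± 0.18, the most negative of the 9 (edgeR adjusted p = 0.126). The share of thinned lymphoid-gated cells with a Fos UMI was 23.0%, 24.1%, 6.73% and 9.26%. The log2 fold change was -1.47 ± 0.40 in the dendritic gate, where the megakaryocyte, myeloid and monocyte markers were lower too, -1.25 ± 0.16 in ungated cells, -1.21 ± 0.19 in the megakaryocyte gate, -1.12 ± 0.30 in the erythroid gate and -1.06 ± 0.19 in the HSC gate. It was -0.99 ± 0.19 in the myeloid gate, where Fos stood at 17.5, 17.6, 8.22 and 9.41 CPM, -0.72 ± 0.19 in the monocyte gate and -0.26 ± 0.28 in the mast and basophil gate. The last turned positive without control 2 (0.08) or without Yoda1 1 (0.14). None passed the edgeR test at an adjusted p of 0.05 in the main fit. With the replicate number as a block, Fos passed in the lymphoid gate, where 5 of 12932 genes were called, all lower. The labels do not say that libraries of the same number are paired. DESeq2 called Fos in the lymphoid gate (adjusted p = 6.08e-13), among 3 of 12932 genes there (0.0232%), and in ungated cells (adjusted p = 3.37e-06), among 17 of 14964 (0.114%).

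For the other members the counts were smaller. Fosb was below both controls in both Yoda1 libraries in 6 of 9 populations, overlapping in the HSC, dendritic, and mast and basophil gates; 2.77% of genes were below in at least 6. Jund was below in 4 (12.2% of genes in at least 4) and Jun in 3 (22.9% in at least 3), shares that are not small. Junb overlapped in all 9. Fosl2 was below in none and above in the dendritic gate, at 4.36, 4.97, 5.93 and 5.08 CPM, from 12, 10, 9 and 13 UMIs. Low counts also enter for Fosb, whose Yoda1 2 values rest on 2 UMIs in the monocyte and 7 in the myeloid gate. The Yoda1 2 values of Fos rest on 31 UMIs in the myeloid and megakaryocyte gates and 37 in the monocyte and erythroid gates.

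By population, the members below were Fos in the HSC gate (14.1% of genes tested there), Fos and Fosb in the lymphoid gate (16.8%) and in ungated cells (15.6%), and Fos in the dendritic gate (16.2%, with 22.3% of genes above). In the myeloid (17.4%), monocyte (18.6%) and megakaryocyte (16.3%) gates, 4 members were below, Fos, Fosb, Jun and Jund, and in the erythroid gate (20.6%) 3, Fos, Fosb and Jund. In the mast and basophil gate (16.2%) none was. Genes with both Yoda1 libraries above both controls were 12.7% in the HSC gate, 10.6% in the lymphoid, 8.90% in the myeloid, 9.16% in the monocyte, 12.3% in the megakaryocyte, 9.96% in the erythroid gate and 9.72% in ungated cells, and 1310 of 10944 genes in the mast and basophil gate; no member was above in any of these. In the megakaryocyte gate Jun was at 128, 252, 76.5 and 97.6 CPM and Jund at 194, 261, 123 and 157 CPM, so both Yoda1 libraries were low. In the erythroid gate Jun was at 134, 325, 92.1 and 142 CPM, where control 1 and Yoda1 2 were close.

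edgeR called 0 genes (0%) in 8 of the populations and 5 of 10709 (0.0467%) in the dendritic gate, all lower and no member, so 0 of the 54 combinations of member and population passed. That count was the result most open to the settings: 18 of 54 passed with no filter on low counts (0.465% of all gene tests over the 9 populations), 9 with the replicate number as a block (0.536%), 2 with DESeq2 (0.0344%), 17 without Yoda1 2 (1.08%) and 6 without Yoda1 1 (0.724%). A test of whether the treatment difference varied between the HSC gate and each other population called none of the 6 members in any of the 8 comparisons, and of all 15496 genes it called 0 (0%) in 7 of them and 30 (0.194%) in the dendritic gate. The change of Fos in the lymphoid gate exceeded that in the HSC gate by -0.73 on the log2 scale, with an edgeR adjusted p of 1.

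Over all cells, most pairs of members were detected in the same cells more often than independent detection gives. Within populations fewer pairs did so in all 4 libraries, and gates with few cells have noisy ratios. The ratio of observed to expected cells had a median over pairs of 1.48 over all cells. It was 1.545 in the myeloid, 1.87 in the monocyte, 1.52 in the erythroid and 1.49 in the megakaryocyte gate. It was lower in the HSC (1.32), lymphoid (1.23), dendritic (1.14) and mast and basophil (1.39) gates and in ungated cells (1.33). In thinned cells, 59.2%, 73.3%, 56.4% and 71.9% had a UMI of at least 1 member, and 2.07%, 5.22%, 1.16% and 2.54% of at least 4. In the mast and basophil gate 8.66%, 13.98%, 6.79% and 15.9% of cells had at least 4, against at most 0.319% of myeloid-gated cells in any library.

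Fos and Fosb made the pair with the strongest excess. Cells with both were 3.73 ± 0.59 (SD, n = 4 libraries) times as frequent as under independence, between 3.18 and 4.31 in the 4 libraries. Within the HSC gate the ratio was 3.28 ± 0.61. In control 1, 15.1% of cells with a Fos UMI also had a Fosb UMI, against 2.42% of cells without one. Fos and Jun, the classical AP-1 pair, had a ratio of 1.59 ± 0.13 over all cells and 1.39 ± 0.12 in the HSC gate.

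The Jun genes, which are detected in many cells, had ratios nearer to 1, at 1.38 ± 0.12 for Jun and Jund and 1.33 ± 0.06 for Jun and Junb, and 1.20 ± 0.09 and 1.13 ± 0.03 within the HSC gate. The Pearson correlation of log-scaled UMIs was highest for Jun and Jund, with a mean of 0.33 over the libraries (0.27 to 0.42). Points within a library share depth and preparation, and no test was made. Of the 15 pairs, 13 had a ratio over 1 in all 4 libraries. The exceptions were Fosl2 with Fos (0.694 to 1.70) and Fosl2 with Fosb (0.894 to 2.05). Within gates, 12 pairs did so in the HSC gate and in ungated cells, 11 in the lymphoid and in the mast and basophil gate, 9 in the erythroid, 8 in the monocyte and in the megakaryocyte, 5 in the dendritic and 2 in the myeloid gate. In the lymphoid gate Fosl2 and Junb were at 0.561 ± 0.38, with all 4 libraries under 1.

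**Figure D3:**
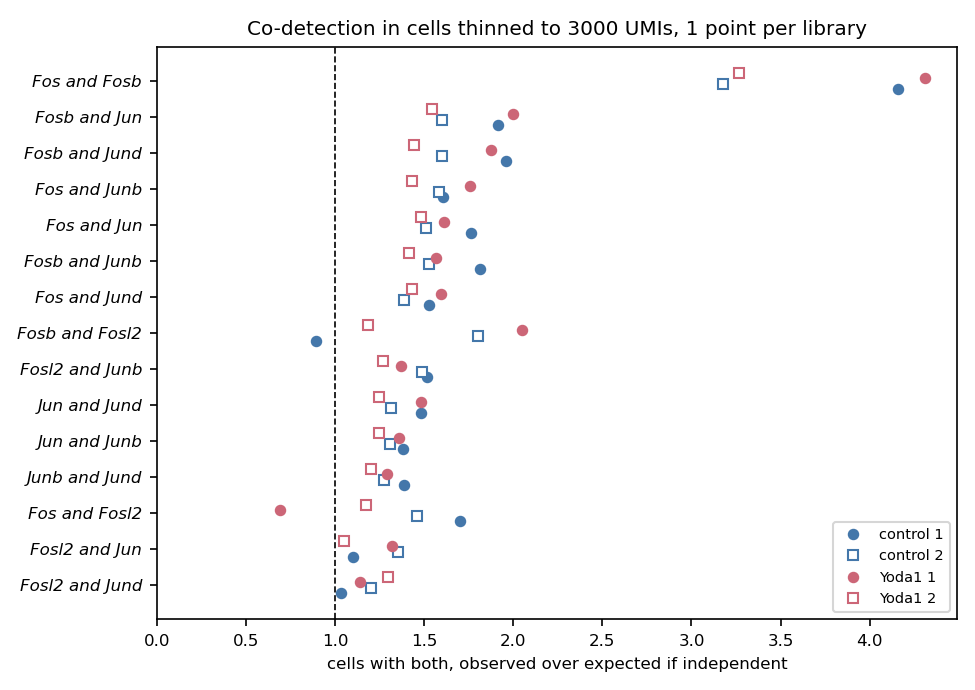
For each of the 15 pairs of members (y axis), the share of cells with a UMI of both over the share expected from independent detection (x axis, dashed line at 1), in cells thinned to 3000 UMIs, 1 point per library. Fos and Fosb lie between 3.18 and 4.31 in the 4 libraries, and only pairs with Fosl2 have a point below 1.

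Across the 36 profiles of 9 populations in 4 libraries, Jun and Jund were the members most alike, with a Pearson r of 0.94 on log2(CPM + 1). Fosl2 was least like the rest, with r between 0.31 and 0.64. Among the 7918 other genes that averaged 10 CPM or more, the profile most like Jun was that of Ppp1r10, a regulatory subunit of protein phosphatase PP1 (r = 0.91), followed by Dusp1, a phosphatase that inactivates MAP kinases (0.90), and Rgs1, a regulator of G protein signalling (0.88). Jund was most like Rgs1 (0.93), Dusp1 (0.92) and Egr1, an immediate early zinc finger factor (0.91). Junb was most like Dusp1 (0.91), Btg1, an antiproliferative gene (0.89), and Ppp1r10 (0.88). Dusp1 thus stood among the 3 nearest genes of all 3 Jun genes.

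Fos was most like Btg1 (0.90), Gpsm3 (0.88) and Cdc42se2 (0.88). Fosb was most like Orai2, a calcium release-activated channel subunit (0.87), Klf6, a Kruppel-like factor (0.84), and Cast, the calpain inhibitor (0.83). Fosl2 was most like Cd1d1 (0.82), Tet2, a DNA demethylase (0.82), and Eif4e3 (0.81). The profiles share libraries, and small populations have noisy values.

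Across single cells the same search gave weak values. For Jun the 5 highest were Malat1 (mean r of 0.27 over libraries, 0.20 to 0.35), H3f3b (0.21), Ctla2a (0.21), Egr1 (0.19) and Neat1 (0.19), and for Jund Malat1 (0.23), Ctla2a (0.23), Txnip (0.19), Ifitm1 (0.18) and Egr1 (0.17). Malat1 and Neat1 are nuclear long non-coding RNAs. For the other members the highest value was 0.14 (Fosb with Prss34), too low to read in sparse counts. Egr1 was among the 5 for Fos and Junb as well.

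The cell cycle was a measure that the choice of members did not use. Thinned cells of each library were ranked by their summed UMIs of S phase and G2/M genes, and the top 25% were set against the bottom 25%. All 6 members were lower in the top 25% in 4 of 4 libraries; no test was made. For Fos the top 25% had 32.5, 38.9, 10.9 and 18.3 CPM and the bottom 25% 83.9, 122, 37.5 and 53.1 CPM. The bottom 25% were thus 2.58-fold, 3.14-fold, 3.45-fold and 2.90-fold higher.

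The mean log2 difference on CPM + 1 was -1.54 ± 0.16 for Fos (SD, n = 4), -1.40 ± 0.25 for Junb, -1.40 ± 0.16 for Jund, -1.22 ± 0.20 for Jun, -1.001 ± 0.52 for Fosb and -0.70 ± 0.25 for Fosl2. Splitting cells by Mki67, a marker of proliferating cells, instead of the lists gave smaller differences, at -0.76 for Fos and -0.71 for Jun. Within the HSC gate, with 76 to 589 cells in each fraction, Fos, Jun, Junb and Jund were again lower in the top 25% in 4 of 4 libraries. Jun there stood at 206, 353, 171 and 206 CPM in the top 25% and 294, 536, 402 and 320.3 CPM in the bottom 25%. Fosb, at 0 in the top 25% of control 1 and Yoda1 1, and Fosl2 had few UMIs in these cells and are not compared. In the other populations Jund was lower in the top 25% in 4 of 4 libraries throughout. Fos was lower in 3 of 4 in the myeloid, dendritic and megakaryocyte gates, as were Jun in the myeloid and Junb in the monocyte gate. For Fos in the myeloid and megakaryocyte gates the remaining library, Yoda1 2, was level, at 8.33 and 4.76 CPM in both fractions. Elsewhere Fos, Jun and Junb were lower in 4 of 4. Fosb and Fosl2 varied more, and each was lower in 1 of 4 in the monocyte gate. Ranked by the G2/M list alone, HSC-gated cells of control 1 had more Junb in the top 25% (48.2 against 39.5 CPM).

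Depth moved with the members as well. In the 25% of cells with the most UMIs, thinned Jun was at 86.2, 146, 62.0 and 167 CPM, and in the 25% with the fewest at 348, 721, 344 and 351 CPM. For Fos these were 17.9, 22.7, 11.2 and 21.8 CPM against 86.4, 131, 37.8 and 46.8 CPM. Within each of these fractions the Fos values of Yoda1 remained below those of control, except that Yoda1 2 lay between the controls among the deepest cells. The mitochondrial share of a cell's UMIs moved with 5 of the members in Yoda1 1. For Jun, the 25% of cells with the highest share had 274 CPM in that library and the 25% with the lowest 86.7 CPM, against 164 and 196 CPM in control 1, 380.5 and 380.0 CPM in control 2, and 225 and 243 CPM in Yoda1 2. In Yoda1 1 the same comparison gave 32.1 and 16.2 CPM for Fos, 23.2 and 5.65 for Fosb, 66.3 and 35.4 for Junb and 303 and 95.8 for Jund, whereas Fos in the other libraries was at 42.9 and 41.7, 58.7 and 58.1, and 32.4 and 35.7 CPM. Among the cells with the highest share, both Yoda1 libraries were below both controls for Fos. The part of depth and of mitochondrial share in the results was not tested.

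**Figure D4:**
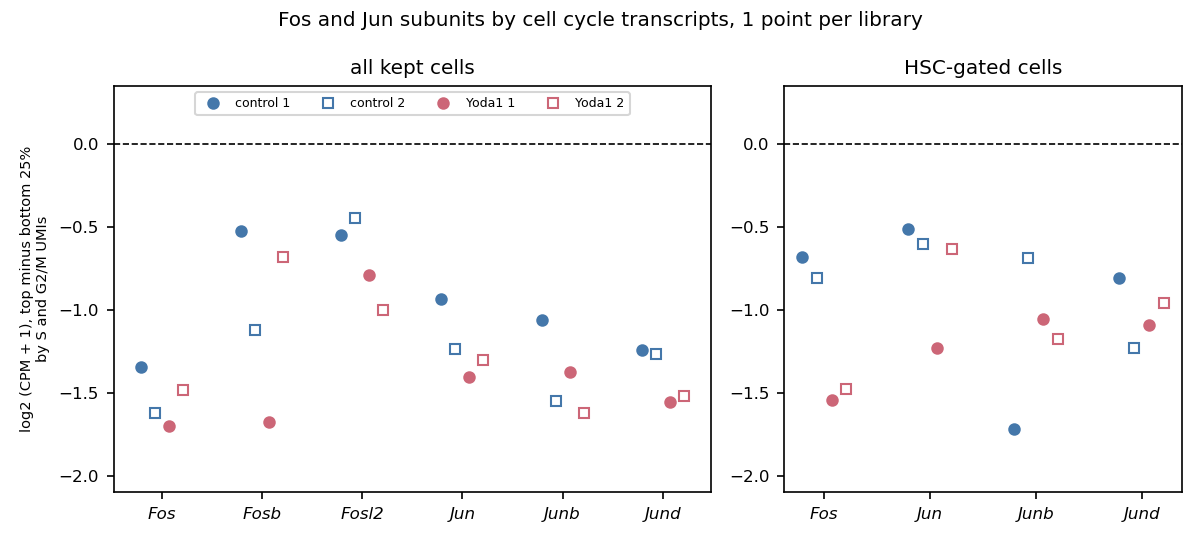
Difference in log2(CPM + 1) between the top and the bottom 25% of cells by S phase and G2/M UMIs (y axis, 0 dashed) for each member over all kept cells and, for 4 members, in HSC-gated cells, 1 point per library. Every point is below 0; over all cells Fos has the lowest mean (-1.54).

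Other genes of the AP-1 pathway were read from lists in the same fit over all cells, where the median log2 fold change of all genes was 0.01. The 18 other basic leucine zipper genes, among them the Batf, Atf and small Maf partners, had a median of -0.02, with 12 lower, 6 higher and 0 called. Batf3, a partner of Jun proteins in dendritic cells, was at 3.16, 3.08, 0.896 and 2.51 CPM (-0.97 ± 0.45), and Batf2 at 1.13, 1.36, 2.46 and 1.70 CPM (0.73 ± 0.38); neither passed. Atf3, a stress-induced relative, was under 1 CPM in all 4 libraries.

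Of 18 kinases and regulators tested, 9 were higher and 9 lower, with a median of -0.0012 and 0 called; Map3k1, which activates the JNK cascade, was at 24.7, 28.6, 27.9 and 38.3 CPM, Elk3, a partner of serum response factor, at 34.9, 41.9, 36.8 and 56.6 CPM, and Mapk9, which encodes the JNK2 kinase, at 25.2, 24.6, 23.5 and 21.1 CPM. Of 23 other immediate early genes 19 were lower and 4 higher, with a median of -0.20 and 0 called. Klf6 was at 32.1, 35.8, 21.0 and 34.5 CPM and Btg2, an antiproliferative immediate early gene, at 43.5, 74.0, 29.2 and 57.3 CPM. Both overlapped between the groups, and Egr3 was under 1 CPM in every library. Without control 2 the median of this list was 0.07, and without Yoda1 2 it was -0.65. Without Yoda1 1 it was -0.0095, with 11 higher and 12 lower. The medians of the other leucine zipper genes and of the kinases turned positive without control 1 (0.01 and 0.08).

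Among 13 genes described as AP-1 targets, 9 were lower and 4 higher, with a median of -0.20 and 0 called. Without Yoda1 2 that median was 0.01, with 7 higher, 6 lower and 1 called higher, and without Yoda1 1 it was -0.24, with 2 called lower. Ccnd1, which encodes cyclin D1, was at 24.1, 21.3, 39.6 and 36.5 CPM, with both Yoda1 libraries above both controls and a log2 fold change of 0.70 ± 0.20 that did not pass. S100a6 was at 23.0, 32.0, 30.6 and 48.7 CPM, and Il6, a cytokine, near 1 CPM or below. The 9 heat shock genes, often induced by cell handling, had a median of 0.04, with 5 higher, 4 lower and 0 called, and the median lay between -0.18 (without Yoda1 1) and 0.24 (without control 1, with 9 of 9 higher); Hspa1a and Hspa1b were under 1 CPM in every library, and Hsph1 was at 63.8, 39.5, 66.6 and 51.7 CPM. The S phase list had a median of -0.06 and the G2/M list of -0.04, with 0 called in either. Without single libraries these medians lay between -0.20 (without control 2) and 0.10 (without control 1) and between -0.33 (without Yoda1 1, with 16 of 16 lower) and 0.20 (without Yoda1 2). Of these, Mcm2 was at 113, 85.8, 89.8 and 84.1 CPM, Mcm6 at 185, 229, 262 and 220.4, Rrm2 at 80.6, 81.6, 81.9 and 67.4, Cks2 at 389, 427, 367 and 293, Ube2c at 305, 286, 293 and 229, and Ccnb2 at 113, 116, 114 and 100.04.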

How the data were processed

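The deposited matrices hold raw counts of UMIs per gene and barcode, not normalized, written by Cell Ranger 7.1.0 per the file headers; the submitters' processing notes name Seurat 4.3.0, GRCm38 and mm10. Different platforms appear in the labels, 10x Genomics and a Singleron microwell chip, so the capture method is uncertain; annotation, strand and intron handling are not given in the sources used here.

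Cells were kept with at least 500 genes, 1000 UMIs and at most 10% mt- UMIs; no doublets were removed. Counts summed per library were tested with edgeR 4.0.16 (filterByExpr, TMM, quasi-likelihood test, Benjamini-Hochberg adjustment over all genes, threshold 0.05) under R 4.3.3, checked on simulated data; the SE is the absolute log2 fold change over the square root of F. CPM is per 1000000 UMIs of the cells summed. Thinning drew 3000 UMIs per cell without replacement and left out 226, 252, 154 and 446 shallower cells. A cell was gated to the marker list with the highest z-score (mean log of UMIs per 10000) of at least 1, with at least 3 markers detected; this rule was set after seeing the data. Alternatives were DESeq2 1.42.0, RLE, no filter, stricter cells and gates, thinning, the 5% deepest cells removed, a replicate block and libraries left out.

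The members and gene lists were chosen with earlier results of these data known. Named genes were the members, up to 3 per list by smallest p, and the 3 (populations) or 5 (cells) most like each member. Promoters are RefSeq windows (6 of 6 members matched), and gene models GENCODE; of the file's gene identifiers 94.1% matched.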

Additional observations from a re-analysis of the deposited data

How the results depend on the processing

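Fos was lower in 97 of 99 combinations of population and alternative, both exceptions in the mast and basophil gate. These combinations reuse the same 4 libraries and are not independent. Leaving out 1 library moved the log2 fold change between -0.73 and 0.14 for Fos in that gate and, over all cells, between -0.45 and 0.14 for Fosl2, -0.85 and 0.11 for Jun, -0.69 and 0.21 for Junb and -0.70 and 0.0867 for Jund. Members called ranged from 0 to 1 over all cells and 0 to 17 over the 54 combinations, genes called from 0 to 938 and, summed over populations, from 14 to 1261 (main value 5), and genes called in the 4 AP-1 lists from 0 to 8. A lone library is assumed there to vary like the other group. The cause of these shifts was not tested.

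Over all cells DESeq2 called 5 genes. Summed over populations, it called 39 (2 for members), no filter 944 (18), the replicate block 608 (9) and leaving out the deepest cells 0. The replicate numbers are only numbers in the labels: the difference between libraries 2 and 1 in control correlated at 0.454 with that in Yoda1 across 18182 genes. Under the block Fos was at -1.85 in the lymphoid gate (edgeR adjusted p = 6.09e-04) and -0.94 over all cells (0.228).

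Depth set the size of the shares. Unthinned HSC over myeloid ratios were 1.37 (Fos), 1.47 (Jun), 0.851 (Junb) and 1.36 (Jund). Co-detection of Fos and Fosb was 4.36 (thinned to 1500 UMIs) and 2.38 (unthinned) over all cells and 4.34 and 2.37 in the HSC gate; Fos and Jun 1.80 and 1.30, with 1.23 unthinned in the HSC gate; Jun and Jund 1.57 and 1.13; Jun and Junb 1.47 and 1.13. By Mki67 the cycle difference was -0.76 (Fos), -0.49 (Fosb), -0.38 (Fosl2), -0.71 (Jun), -0.84 (Junb) and -0.77 (Jund), and by the G2/M list alone -1.30 for Fos. The count of populations below, added with thinned cells after seeing the data, was 3 for Fosl2 and 1 for Junb.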

Other observations

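Barcodes over the mitochondrial limit were left out of every comparison. Those with at least 1000 UMIs, whatever their number of genes, numbered 294, 406, 301 and 181 (control 1, control 2, Yoda1 1, Yoda1 2). Their median was 1399 to 1574.5 UMIs. Per 1000000 UMIs outside the mitochondrial genes, Jun stood at 39.5, 309, 191 and 69.5 in them and at 143, 302, 118 and 222 in the kept cells. Control 1 and Yoda1 2 were lower in these barcodes than in kept cells, Yoda1 1 was higher and control 2 was about level. Fos stood at 7.90, 44.9, 29.0 and 15.5 in them and at 32.7, 51.4, 16.5 and 29.7 in kept cells, so the groups of libraries overlapped in these barcodes. The barcodes held only 477633, 734777, 514726 and 313107 UMIs in all, so the Fos values in them rest on few UMIs and their order is uncertain.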
